A study of Mus musculus with 150 samples.

Results

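The Hox genes were taken as every probe set whose gene symbol is Hox followed by a cluster letter a to d and a paralogue number. The rule found 38 probe sets among the 12422 that are not controls, and these stand for 31 of the 8251 genes named by a probe set with 1 symbol, with 14 probe sets of 10 genes in the Hoxa cluster, 10 of 9 in Hoxb, 5 of 5 in Hoxc and 9 of 7 in Hoxd. Of these, 37 probe sets were above the floor used for low values on at least 1 array and were tested. Hoxd13, which patterns the digits and the hindmost trunk, lay below the floor on every array and is only counted.

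Hox genes encode homeodomain transcription factors that give cells along the head to tail axis their position. Within each cluster the genes lie in the order of their paralogue numbers, and genes with low numbers are switched on earlier and nearer the head than genes with high numbers. In the nervous system their territory runs from the hindbrain through the spinal cord, while the forebrain and midbrain form outside it. Many trunk organs keep part of the Hox code of the embryonic segments they came from. Retinoic acid and Cdx factors switch the clusters on, Polycomb and trithorax proteins maintain the state, and Hox proteins bind DNA with TALE partners such as Pbx and Meis.

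The atlas holds 150 one-colour arrays of total RNA from adult wild type inbred mice, 24 neural tissues from strains labelled 129, B6 and DBA and 10 body tissues from 129, B6, DBA, AJ and C3H. Spinal cord, medulla, pons, cerebellum, inferior colliculi, superior colliculi, PAG, midbrain-thalamus, hypothalamus, pituitary and choroid plexus each had 2 arrays of 129 and 2 of B6, and retina had 4 of B6. Kidney, adrenal, testes, white and brown adipose tissue, muscle, heart, liver, spleen and thymus each had 1 array of every one of the 5 strains. The 12 telencephalic tissues, namely hippocampus, CA1, CA3, dentate gyrus, cortex, motor cortex, entorhinal cortex, perirhinal cortex, amygdala, striatum, BNST and olfactory bulbs, served as the common baseline. No allele, treatment, age in numbers or sex entered the comparisons, and the labels tie some arrays to the same animal or pool, so the p-values measure the spread between these arrays.

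An array of 129 hippocampus and one of DBA perirhinal cortex held the same value for all 12488 probe sets, so both were left out, and 148 arrays were used, 98 neural and 50 body. The 50 telencephalic arrays included 1 that stood apart. The first DBA array of CA1 held the highest telencephalic value for 13 of 38 Hox probe sets and for 17.4% of all 12422 probe sets, and its Hox intensities summed to 1741, against 695 to 1579 on the other telencephalic arrays. Array medians ran from 38.5 to 68.2 intensity units. The number of arrays, not a read depth, limits the precision here.

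All values below are deposited intensities in arbitrary units, and differences are log2 differences of intensities raised to a floor of 10.4 units, the 20th percentile of all values. A member was called when limma gave an adjusted p under 0.05 and a difference of at least 1 in size. Neural arrays are listed as 129, 129, B6 and B6, and body arrays as 129, B6, DBA, AJ and C3H. The probe sets have different sequences, so levels are compared only within a probe set. Telencephalic arrays were mostly at or below the floor for several members: 49 of 50 for Hoxa7, 48 for Hoxa10 and 47 for Hoxb9 and Hoxb4. The number was 45 for Hoxb8 96417_s_at, 44 for Hoxd9, 37 for Hoxb5, 30 for Hoxa13 and Hoxd8 93221_at and 29 for Hoxc6. A difference of these members is one of floored values, its size depends on the floor, and no fold against telencephalon is given for it. In whole tissue, fewer cells of a type and less RNA per cell cannot be told apart. Every comparison with telencephalon uses the same 50 arrays, so the counts of different tissues are not independent.

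The 250 bases before the start of 4 genes are shown because Hoxa7, Hoxa9 and Hoxd8 gave among the largest differences in both spinal cord and kidney, while Hoxa5 gave one in both medulla and brown adipose tissue. They come from RefSeq on GRCm38.p6, which listed a promoter for 20 of the 31 genes (22 promoters). Hoxa4, Hoxb3, Hoxb5, Hoxb6, Hoxb7, Hoxb9, Hoxb13, Hoxc5, Hoxc6, Hoxc8 and Hoxc9 had none there. The Hoxa genes lie on chromosome 6, Hoxb on 11, Hoxc on 15 and Hoxd on 2. Capitals mark matches, on either strand, to CCAAT or AGGTCA.
Hoxa5, chr6:52204588-52204837, minus strand: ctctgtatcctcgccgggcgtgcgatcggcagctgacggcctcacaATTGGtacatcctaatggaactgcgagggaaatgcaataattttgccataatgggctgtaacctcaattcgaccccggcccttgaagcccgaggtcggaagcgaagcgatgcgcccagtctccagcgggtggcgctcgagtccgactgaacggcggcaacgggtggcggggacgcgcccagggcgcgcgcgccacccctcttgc
Hoxa7, chr6:52218574-52218823, minus strand: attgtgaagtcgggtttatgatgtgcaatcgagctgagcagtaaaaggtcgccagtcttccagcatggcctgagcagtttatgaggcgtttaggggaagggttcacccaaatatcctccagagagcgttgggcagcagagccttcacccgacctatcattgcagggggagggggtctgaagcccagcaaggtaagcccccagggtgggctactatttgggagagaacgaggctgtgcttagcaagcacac
Hoxa9, chr6:52227371-52227620, minus strand: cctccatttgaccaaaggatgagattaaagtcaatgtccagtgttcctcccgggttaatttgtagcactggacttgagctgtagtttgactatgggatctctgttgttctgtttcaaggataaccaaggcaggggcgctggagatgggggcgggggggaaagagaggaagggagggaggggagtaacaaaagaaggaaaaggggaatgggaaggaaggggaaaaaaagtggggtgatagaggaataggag
Hoxd8, chr2:74704365-74704614, plus strand: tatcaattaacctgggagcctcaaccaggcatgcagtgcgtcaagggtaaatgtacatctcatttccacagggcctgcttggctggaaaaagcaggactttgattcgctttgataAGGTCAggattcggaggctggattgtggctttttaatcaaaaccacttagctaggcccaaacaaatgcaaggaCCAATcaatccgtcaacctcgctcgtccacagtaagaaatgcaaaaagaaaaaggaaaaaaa
CCAAT, the letters read by the NF-Y factor, was present in 12 of 22 Hox promoters and in 33.8% of all 32851 promoters of that length. AGGTCA, which forms part of retinoic acid response elements, was in 4 of 22 (Hoxd10, Hoxd8, Hoxb4 and Hoxc4), against 14.0% of all. TATAAA was in 3 of 22, against 12.4%, and TGATTNAT, the joint Hox and Pbx motif, was in 2 of 22, against 2.82%. The median Hox promoter was 59.2% G or C and held 13 CpG, against 52.4% and 6 over all promoters. The motifs do not overlap each other in letters. A match is a run of letters and not a shown binding site.

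**Figure D1:**
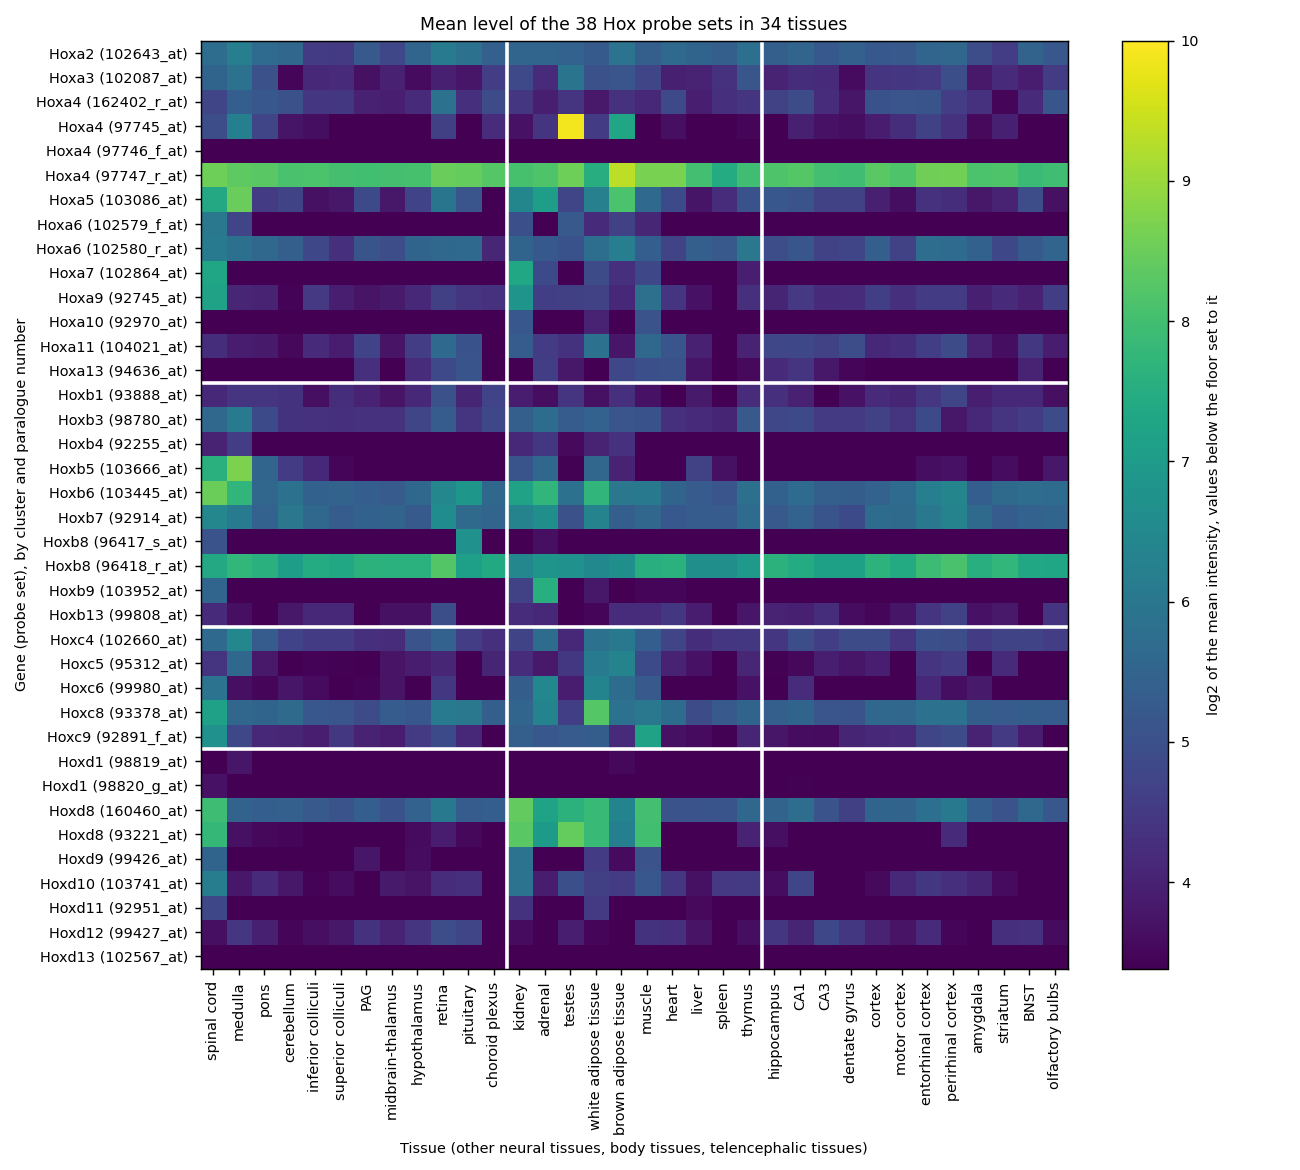
Log2 of the mean intensity (colour, with values below the floor set to it) of 38 Hox probe sets in rows, by cluster and paralogue number, over 34 tissues in columns, with white lines between the other neural, the body and the telencephalic tissues. Spinal cord, medulla, kidney, adrenal, testes, both fat depots and muscle hold most of the bright cells outside 97747_r_at of Hoxa4 and 96418_r_at of Hoxb8, which are bright in every tissue.

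In spinal cord, 19 of 37 Hox probe sets were called higher than in telencephalon and 0 lower, where 4.21% of 12387 probe sets were called higher and 3.32% lower. The median Hox difference was 1.05, against -0.01 over all probe sets. It was 2.43 over the 18 probe sets of paralogues 5 to 9, of which 14 were called, against 0.42 over 12 probe sets of paralogues 1 to 4 with 3 called and -0.01 over 7 probe sets of paralogues 10 to 13 with 2 called. All clusters took part, with 6 of 14 Hoxa, 5 of 10 Hoxb, 3 of 5 Hoxc and 5 of 8 tested Hoxd probe sets called. Every cord array lay above every telencephalic array for 12 of 38 Hox probe sets, where 3.41% of all probe sets did so; without the CA1 array that stood apart it was 14, against 3.55%. With the floor at the 40th percentile (32.8 units) the calls were 10 in cord and 6 in medulla, where 3.25% and 2.24% of all probe sets were called.

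Hoxb5, a gene of the hindbrain and upper trunk, read 224, 167, 172 and 202 in spinal cord, against -15.0 to 38.5 (median 6.04) in telencephalon. The difference was 3.98 ± 0.24 (SE, adjusted p = 3.76e-30), and the groups did not overlap. Hoxa7, a mid-trunk gene, read 141, 145, 166 and 174, against -61.4 to 20.7 (median -11.1). With 49 of 50 telencephalic arrays at the floor, the difference of floored values was 3.88 ± 0.24 (SE, adjusted p = 7.15e-29), and the groups did not overlap. Hoxa5, which in the mouse acts in lung growth and in the neurons that drive breathing, read 106, 102, 231 and 225 in cord, against 3.52 to 46.9 (median 21.4). The difference was 2.98 ± 0.27 (SE, adjusted p = 5.62e-18), again without overlap, and both B6 cord arrays stood above both 129 arrays.

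Hoxa9, known in the trunk and in blood progenitors, read 162, 153, 137 and 129.7 in cord, against 9.95 to 34.8 (median 19.4), and differed by 2.95 ± 0.22 (SE, adjusted p = 3.29e-23). Hoxb6 read 378, 364, 352 and 359, against 18.8 to 104 (median 48.9), and differed by 2.88 ± 0.19 (SE, adjusted p = 1.72e-26). For both genes the 4 cord arrays were close together and above every telencephalic array. Hoxd8 has 2 probe sets that agreed in direction: 160460_at read 240.4, 217, 279 and 256 and 93221_at 206, 233, 256 and 184 in cord, with differences of 2.58 ± 0.22 and 4.18 ± 0.21. The remaining calls included genes that set motor neuron columns: Hoxc6, of the limb level, at 2.28 ± 0.22, Hoxc9, of the thoracic level, at 2.66 ± 0.23, and Hoxd10, of the lumbar level, at 1.88 ± 0.31. Hoxb9, Hoxd9, Hoxc8, Hoxa3, Hoxd11 and Hoxb3 were called at 1.13 to 2.11. Hoxa4 97745_at was called in cord too, and lost its call without the first B6 cord array (0.91). The other probe sets of Hoxa4 were not called in cord.

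The posterior Hoxd genes were not even across the cord arrays. Hoxd9 read 68.5, 57.4, 27.8 and 28.6, Hoxd10 129, 106, 35.9 and 15.8 and Hoxd11 86.9, 41.8, -11.8 and -4.54, so all 3 were at least 1.5 times higher on both 129 arrays than on both B6 arrays, on floored values. That order was seen for 1.13% of all probe sets in cord, and these members were noticed after their values were seen. The labels do not give the levels of cord taken, and the part of dissection or strain in the order was not tested. Hoxd11 was at or below the floor on every telencephalic array and on both B6 cord arrays, so its 1.27 ± 0.15 depends on the floor and is no bound, and it lost its call without the first 129 array (0.68).

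Medulla gave 10 of 37 Hox probe sets higher than telencephalon and 0 lower, with backgrounds of 2.68% and 3.04%. Here the low and middle paralogues carried the calls: 5 of 12 probe sets of paralogues 1 to 4 and 5 of 18 of paralogues 5 to 9, but 0 of 7 of paralogues 10 to 13. The medians of these groups were 0.89, 0.20 and -0.01. None of the 8 tested Hoxd probe sets was called, but these include none of Hoxd3 or Hoxd4. The sets shared by those genes lie outside the rule. Of these, 98367_at read 65.19 to 76.51 in medulla and 20.0 to 22.8 in pons, against a telencephalic highest of 65.23. The other, 102380_s_at, read 36.0 to 74.2 in medulla and 1.02 to 12.3 in pons, against a telencephalic highest of 54.6. All medulla arrays exceeded all telencephalic arrays for 8 of 38, where 2.57% of all probe sets did so.

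Hoxb5 read 418, 373, 424 and 449 in medulla, and its difference from telencephalon was 5.11 ± 0.24 (SE, adjusted p = 6.82e-39), with 37 of 50 telencephalic arrays at the floor. Hoxa5 read 252, 222, 458 and 517 and differed by 4.11 ± 0.27 (SE, adjusted p = 6.01e-27). Neither overlapped with telencephalon. Hoxb6 read 217, 197, 206 and 236, a difference of 2.12 ± 0.19 (SE, adjusted p = 1.2e-17), also without overlap. Hoxc4 read 85.4, 91.6, 88.6 and 82.1, against 2.60 to 53.7 (median 27.8), and differed by 1.77 ± 0.25 (SE, adjusted p = 2.45e-09) with no overlap. Hoxc5 read 57.9, 53.2, 31.5 and 52.8, against 0.44 to 39.3 (median 11.9), and its difference of 1.77 ± 0.27 (SE, adjusted p = 2.4e-08) came with 1 medulla array inside the telencephalic range. Hoxa3 and Hoxb3, genes of the posterior hindbrain and pharyngeal arches, were called at 1.64 ± 0.24 and 1.62 ± 0.26, and Hoxb4 at 1.08 ± 0.13. The Hoxb4 call was lost without the first B6 medulla array (0.92).

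For Hoxa4 the probe sets disagreed. Probe set 97745_at, looked at after its values were seen, read 68.7, 75.7, 82.8 and 75.5 in medulla, against 0.21 to 36.1 (median 15.0) in telencephalon, a call of 2.35 ± 0.24. The set with the highest mean, 97747_r_at, read 331, 336, 328 and 315 in medulla, against 193 to 478 (median 274), and was not called. The suffixes r, f and s in such names mark designs that can be less specific. Of these Hoxa4 sets, 97747_r_at carries one and 97745_at carries none. Which of them measures the gene was not tested. For Hoxa6 and Hoxb8 every set carries such a suffix, and so does the only Hoxc9 set, 92891_f_at. The probe sets of Hoxa6 and of Hoxb8 disagreed in the same way: 102579_f_at of Hoxa6, at the floor on every telencephalic array, was called in cord and medulla at no less than 6.28 and 2.53 times the floor, while 102580_r_at was called in neither, and 96417_s_at of Hoxb8 was called in cord at 1.68 ± 0.13 while 96418_r_at was not.

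In front of the medulla few calls were left, at shares near the background. Pons gave 1 higher call and 0 lower, with backgrounds of 2.71% and 3.24%: Hoxb5 read 45.1, 47.0, 48.0 and 45.5, above every telencephalic array, and differed by 1.95 ± 0.24 (SE, adjusted p = 1.32e-11). Cerebellum gave 1 higher and 0 lower, with 3.10% and 3.74%: Hoxb5 read 31.3, 25.6, 40.7 and -5.27 and differed by 1.00 ± 0.24 (SE, adjusted p = 0.000362). The cerebellar arrays overlapped with telencephalon, 1 of them lay below 0, and the call was lost without either of the first arrays of 129 (0.89) or B6 (0.74) or without the second of 129 (0.99). Inferior colliculi, superior colliculi, PAG, midbrain-thalamus and hypothalamus gave 0 of 37 in either direction by limma, with backgrounds of 1.36%, 1.82%, 2.04%, 1.80% and 2.53% for higher calls. For lower calls they were 1.95%, 2.24%, 2.50%, 2.29% and 1.87%.

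**Figure D2:**
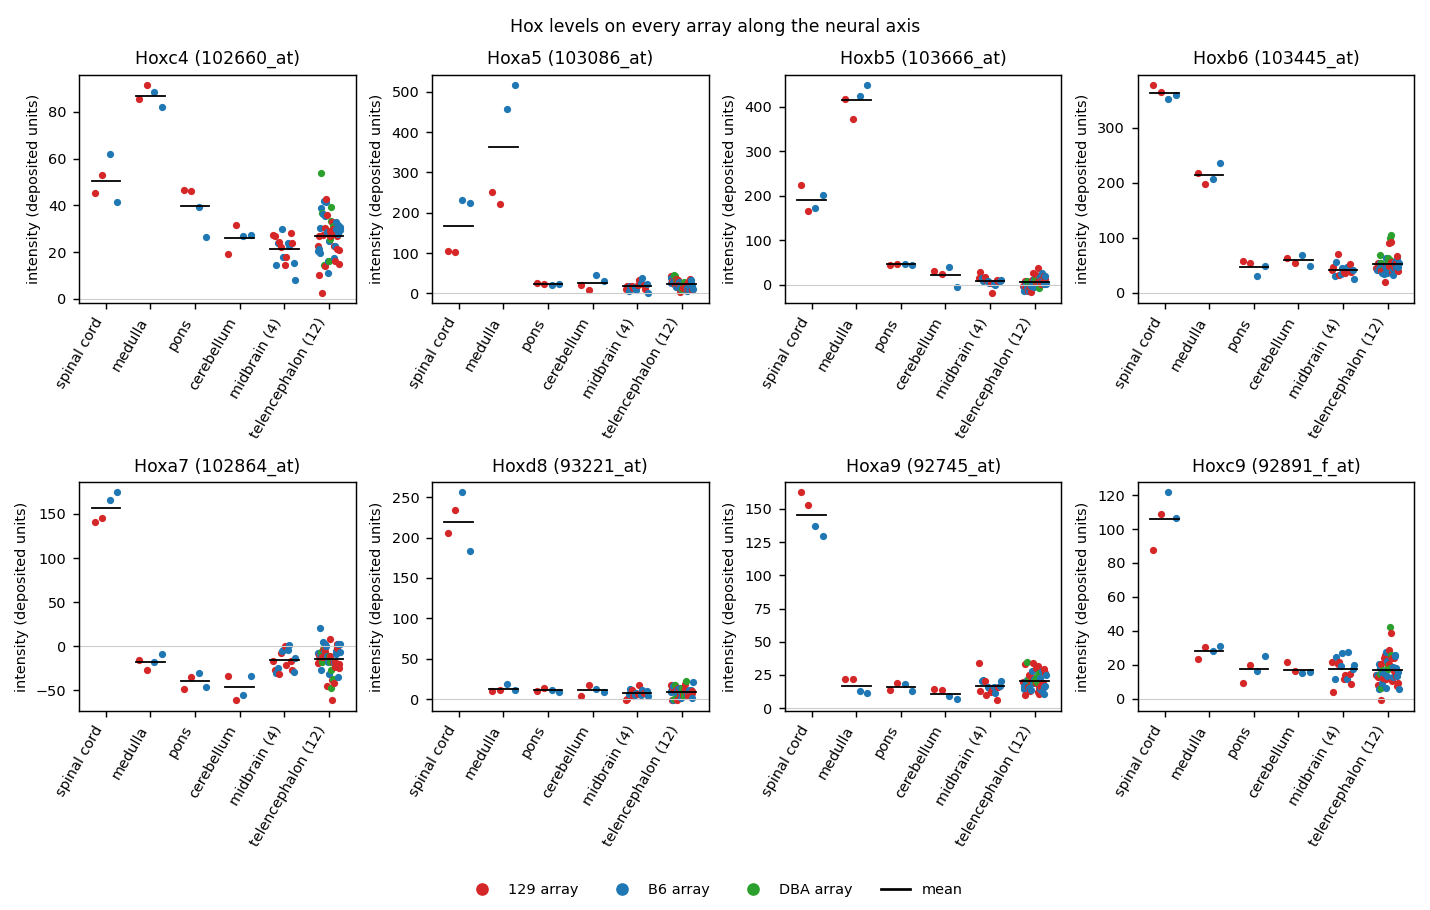
Deposited intensity of single arrays (points, coloured by strain, with the mean as a line) for 8 Hox probe sets in spinal cord, medulla, pons, cerebellum, the 4 midbrain tissues and the 12 telencephalic tissues, from left to right. Hoxb5, Hoxa5 and Hoxc4 are highest in medulla, and Hoxa7, Hoxa9, Hoxd8 and Hoxc9 are high in cord alone among the tissues drawn.

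Setting neighbours against each other located the steps. From medulla to spinal cord, 13 Hox probe sets were called higher in cord and 1 lower, where 0.597% and 0.0727% of all probe sets were called, so that 13 of the 74 probe sets called higher were Hox. Paralogues 5 to 9 held 11 of the 13 and paralogues 10 to 13 held 2. Hoxa7 read 141, 145, 166 and 174 in cord, against -16.2, -27.4, -18.1 and -8.47 in medulla, where every array was at the floor. Cord was at least 14.9-fold higher, a log2 difference of 3.90 ± 0.32 (SE, adjusted p = 2.15e-18). Hoxa9 read 129.7 to 162 in cord, against 21.9, 21.9, 12.9 and 11.2 in medulla, and differed by 3.16 ± 0.30 (SE, adjusted p = 2.32e-15). These arrays did not overlap. Hoxd8 (160460_at) read 217 to 279 in cord, against 55.5, 44.8, 38.4 and 41.3 in medulla, a difference of 2.47 ± 0.30 (SE, adjusted p = 5.78e-10). Hoxc6 read 46.3, 46.8, 64.9 and 80.1, against 7.79, 13.6, 17.1 and 12.4, and differed by 2.14 ± 0.30 (SE, adjusted p = 1.62e-07). The call lower in cord was Hoxa4 97745_at, at 25.5 to 39.0 in cord, against 68.7 to 82.8 in medulla, a difference of -1.31 ± 0.32 (SE, adjusted p = 0.0155) that lost its call in 4 of 8 single-array omissions (adjusted p = 0.0566 to 0.0843). Hoxd10 lost its call of 1.81 ± 0.42 without either 129 cord array (adjusted p = 0.191 and 0.139) or without the first B6 medulla array (adjusted p = 0.071), and Hoxd11 lost its own without the first 129 cord array (0.67).

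The step between pons and medulla gave 7 Hox probe sets higher in medulla and 0 lower, where 0.137% of all probe sets were called higher and 0.0404% lower, so that Hox made up 7 of 17 calls. Hoxa5 read 252, 222, 458 and 517 in medulla, against 24.7, 22.4, 21.8 and 23.7 in pons, a difference of 3.87 ± 0.36 (SE, adjusted p = 9.54e-15). Hoxb5 read 373 to 449 in medulla, against 45.1 to 48.0 in pons, and differed by 3.16 ± 0.32 (SE, adjusted p = 2.33e-13). Hoxb6 read 197 to 236, against 30.2 to 56.9, and differed by 2.21 ± 0.26 (SE, adjusted p = 2.45e-10). For all 3 the lowest medulla array stood above the highest pons array. Hoxc5 read 31.5 to 57.9, against 10.2, 16.6, 19.3 and 11.5, a difference of 1.77 ± 0.36 (SE, adjusted p = 0.00266). Hoxa4 97745_at was called with 68.7 to 82.8 in medulla, against 20.6 to 32.3 in pons, and lost its call without the first 129 pons array (adjusted p = 0.0975). Hoxa6 102579_f_at and Hoxb4 were the other calls, at 1.34 ± 0.20 and 1.13 ± 0.18, both lower bounds because every pons array was at the floor and no medulla array was. Hoxb4 lost its call without the first B6 medulla array (0.98).

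Pons exceeded the mean of the 4 midbrain tissues for 2 probe sets, with 0.993% called over all. Hoxb5 differed by 1.91 ± 0.25 (SE, adjusted p = 5.1e-09), and Hoxa4 97745_at by 1.09 ± 0.26 (SE, adjusted p = 0.00114), a call lost without the second B6 pons array (0.97), which also took the count to 6. Between cerebellum and pons, both of which form from the hindbrain, 0 Hox probe sets were higher in cerebellum, with 4.59%, and 1 was lower, with 3.85%, a share near the background. Hoxa3 read 7.70, 9.46, 11.3 and 16.6 in cerebellum, against 37.8, 38.7, 24.4 and 29.5 in pons, with no overlap and a difference of -1.42 ± 0.33 (SE, adjusted p = 0.000343).

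**Figure D3:**
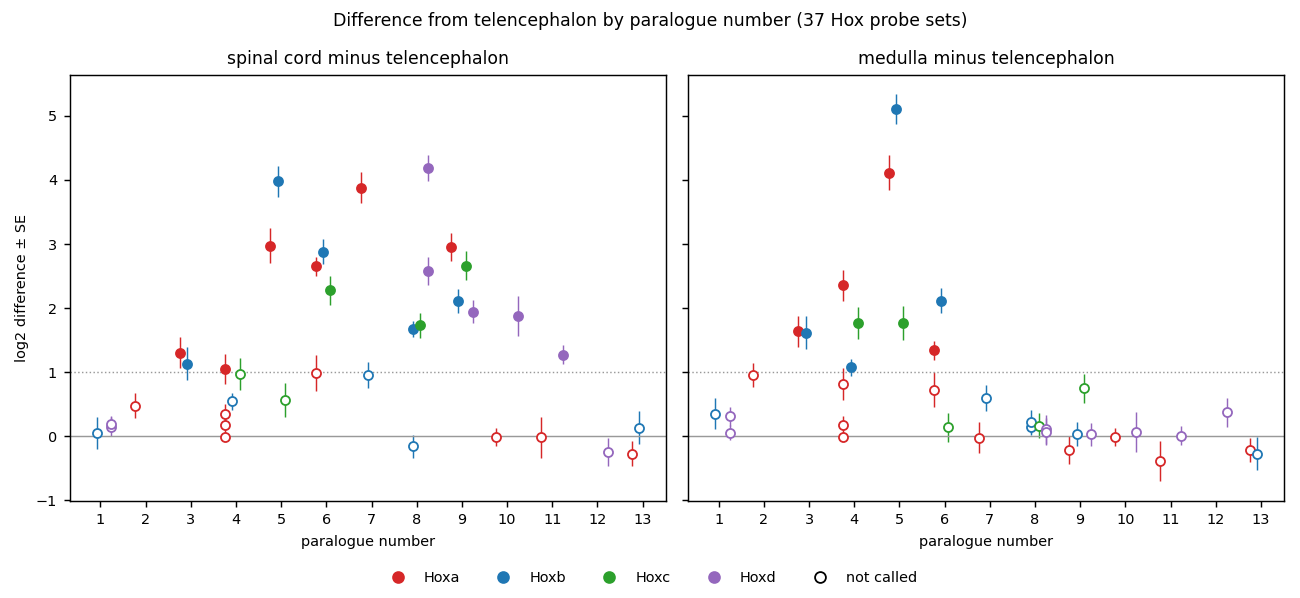
Log2 difference from telencephalon with its SE (vertical axis) against paralogue number (horizontal axis) for 37 Hox probe sets in spinal cord, left, and medulla, right, with filled points for calls, open points for the rest and colours for clusters. In medulla the filled points lie at paralogues 3 to 6, and in spinal cord they reach paralogue 11.

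Markers of other cell types also differed. Of the listed genes, 3 of 3 fibroblast, 3 of 3 measured oligodendrocyte and 1 of 2 measured motor neuron genes were called higher in cord, and 1, 3 and 1 in medulla. The fibroblast list summed to 1433 to 2633 in cord and 280 to 633 in medulla, against 35.2 to 1091 in telencephalon, so that medulla lay inside the telencephalic range, and the oligodendrocyte list to 16661 to 18006 in cord and 10388 to 12582 in medulla, against 1029 to 12332. Slc18a3, the vesicular acetylcholine transporter and the 1 motor neuron gene called, read 60.8 to 143 in cord and 37.3 to 98.7 in medulla, against -70.0 to 17.4 in telencephalon. Their part in the Hox differences was not tested.

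Retina, pituitary and choroid plexus, neural tissues in the labels, gave few calls against a wide background. Retina had 5 of 37 higher, a share near the 12.6% of all probe sets, and 0 of 38 lay wholly above telencephalon, with 8.22% over all. Hoxa5 read 74.9, 79.6, 48.0 and 46.8 on the 4 retina arrays, all B6, against 3.52 to 46.9 (median 21.4) in telencephalon, and differed by 1.53 ± 0.27 (SE, adjusted p = 7.09e-07). Hoxa11, known in limb and kidney, read 22.5, 72.8, 24.6 and 80.6, a difference of 1.09 ± 0.32 (SE, adjusted p = 0.00225) that lost its call without the second (0.83) or the fourth (0.78) array, and Hoxb7 read 87.6, 92.5, 62.3 and 147 and differed by 1.08 ± 0.21 (SE, adjusted p = 3.11e-06), a call lost without the fourth (0.86). The retina arrays overlapped with telencephalon for all 3, and the median of all probe sets was itself 0.15 in this comparison. With quantile normalization 1 call remained, Hoxa5 (1.26).

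Pituitary had 3 calls higher and 0 lower, with 12.2% and 9.74%. Hoxb6 read 122, 122, 113 and 114, above every telencephalic array, a difference of 1.26 ± 0.19 (SE, adjusted p = 8.26e-09). Hoxa13 read 48.4, 19.4, 19.2 and 51.5, against -7.88 to 27.1 (median 8.91) in telencephalon, so that 2 pituitary arrays lay inside that range, and differed by 1.29 ± 0.19 (SE, adjusted p = 3.1e-09). Hoxb8 96417_s_at read 115, 104, 104 and 105, against -4.23 to 32.4 (median 5.20), with no overlap and a difference of 3.34 ± 0.13 (SE, adjusted p = 2.12e-48), but 96418_r_at of the same gene read 138, 181, 127 and 112 in pituitary, against 112 to 309 (median 177), and was not called. Choroid plexus had 0 higher, with 12.0%, and 1 lower, with 14.0%: Hoxa6 102580_r_at read 18.1, 26.9, 6.93 and 15.9, against 2.94 to 88.1 (median 35.5), a difference of -1.01 ± 0.28 (SE, adjusted p = 0.000957) with overlapping arrays, lost without the first B6 array (-0.80).

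Among body organs, kidney carried 14 Hox probe sets higher than telencephalon and 1 lower, with backgrounds of 13.8% and 14.2%. The median Hox difference was 0.82, against -0.04 over all. Paralogues 5 to 9 held 12 of the higher calls with a median of 1.48, paralogues 10 to 13 held 2 with a median of 0.93, and paralogues 1 to 4 held 0 with a median of 0.04. All 5 kidney arrays lay above every telencephalic array for 9 of 38, with 10.9% over all. By this measure adrenal gave 5 (10.9%), testes 5 (14.2%), white fat 4 (10.4%), brown fat 5 (11.5%) and muscle 3 (11.3%). These were near the background, or under it in muscle. Without the CA1 array that stood apart, kidney gave 10 (11.2%), adrenal 8 (11.2%) and testes 5 (14.7%). White fat then gave 6 (10.9%), brown fat 6 (11.8%) and muscle 4 (11.7%). The kidney tubule markers summed to 17552 to 27870 in kidney, and Prm1, a sperm protein gene, read 602 on the 129 array and 229 on the B6 array. Without those 2 arrays the count was 14 higher, and Hoxb9 lost its call (0.75). Ucp1, a brown fat gene, read 88.5 to 664 on the kidney arrays, against a telencephalic highest of 28.6. Adipoq, a fat cell gene, read 74.9 to 360 on them, against 21.3. Alb, a liver gene, read 1112 on the C3H array, 313 on the DBA array and 41.3 to 60.7 on the rest. The part of the fat and liver genes in the kidney calls was not tested.

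Hoxa7 read 148, 128, 226, 147 and 152 in kidney, against -61.4 to 20.7 (median -11.1) in telencephalon, without overlap. The difference was 3.99 ± 0.22 (SE, adjusted p = 9.77e-34). Hoxd8 160460_at read 283, 392, 288, 353 and 385, against 16.2 to 130.4 (median 41.8), and differed by 3.02 ± 0.21 (SE, adjusted p = 7.21e-27), and 93221_at of this gene read 246 to 377 and differed by 4.77 ± 0.19. Hoxa9 read 118, 79.6, 137, 115 and 114, against 9.95 to 34.8 (median 19.4), and differed by 2.59 ± 0.20 (SE, adjusted p = 1.04e-22). None of these 3 overlapped with telencephalon. Hoxd9, known with its neighbours in limb and trunk, read 52.3, 66.0, 62.8, 73.9 and 46.9, against -48.5 to 18.2 (median -3.88), and differed by 2.53 ± 0.17 (SE, adjusted p = 3.37e-28), again without overlap. Hoxd10 read 90.1, 61.5, 42.6, 64.4 and 41.5, against -8.58 to 115 (median 11.6), and overlapped only through the CA1 array that stood apart, at a difference of 2.15 ± 0.29 (SE, adjusted p = 1.19e-10). Hoxa10, a gene of the uterus and lumbar trunk, was called at 1.42 ± 0.13. The lower call was 96418_r_at of Hoxb8, at -1.07 ± 0.17, lost without the DBA array (-0.97), and Hoxb9 at 1.03 ± 0.18 lost its call without the B6 array (0.71).

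Adrenal had 13 calls higher, with 13% (1608 of 12387) over all probe sets. Of these, 6 of 10 Hoxb probe sets were called and 9 of 13 calls were paralogues 5 to 9. Hoxb9, a lower-trunk gene, read 176, 188, 128, 196 and 258 in adrenal, against -13.4 to 28.0 (median 1.31) in telencephalon, and differed by 4.04 ± 0.18 (SE, adjusted p = 3.28e-43), with 47 of 50 telencephalic arrays at the floor. Hoxc6 read 93.1, 78.2, 103, 97.5 and 70.6, against -1.95 to 77.7 (median 10.2), and differed by 2.81 ± 0.21 (SE, adjusted p = 2.65e-24). Hoxb9 did not overlap, and Hoxc6 overlapped only through the CA1 array, whose next telencephalic value was 25.1. Hoxa5 read 69.4, 119, 172, 159 and 167, above every telencephalic array, and differed by 2.68 ± 0.25 (SE, adjusted p = 4.24e-18). Hoxb6 read 228, 222, 232, 162 and 233, a difference of 2.14 ± 0.18 (SE, adjusted p = 6.05e-21). Hoxb5 read 35.0, 40.1, 44.8, 55.9 and 63.9, a difference of 1.99 ± 0.22 (SE, adjusted p = 3.16e-14). Hoxb6 lay wholly above telencephalon, and Hoxb5 overlapped on its lowest array.

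The adrenal arrays also carried fat genes. Ucp1, the brown fat uncoupling protein, read 871 to 3862 on them, the brown fat list summed to 4101 to 7036, against -0.25 to 107 in telencephalon, and the fat cell list to 2897 to 5679, against 144 to 328. Their own adrenal list summed to 12249 to 15796, against 142 to 2010. Of the members called in adrenal, Hoxa5, Hoxa13, Hoxb4, Hoxc4 and Hoxc6 were also called higher than telencephalon in brown adipose tissue. Hoxa7, Hoxb3, Hoxb5, Hoxb6, Hoxb7 and Hoxb9 were not called there, and the probe sets of Hoxd8 differed in this. In white adipose tissue, Hoxa5, Hoxa7, Hoxb3, Hoxb5, Hoxb6, Hoxc4, Hoxc6 and both Hoxd8 probe sets were called higher than telencephalon. Hoxa13, Hoxb4, Hoxb7 and Hoxb9 were not called in white adipose tissue. Hoxb9 read -2.08 to 15.9 in brown adipose tissue. The part of the fat in the adrenal calls was not tested. Without the 3 arrays over 100 units of Kap, a kidney gene, the count was 14, and Hoxa7 lost its call of 1.26 ± 0.22 (0.67). Acta1, the skeletal muscle actin gene, read 3455, 295, 12.1, 4.61 and 8.32 on the adrenal arrays, against a telencephalic highest of 121. Its part was not tested.

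Testes had 7 calls higher, a share near the 16.8% of all probe sets, and 0 of 10 Hoxb probe sets were among them. Hoxd8 160460_at read 155, 195, 189.8, 229 and 232 in testes, against 16.2 to 130.4 (median 41.8) in telencephalon, and differed by 2.25 ± 0.21 (SE, adjusted p = 1.13e-18) with no overlap. Hoxa3 read 51.5, 53.5, 70.5, 49.2 and 82.1, against 0.22 to 46.2 (median 19.2), and differed by 1.65 ± 0.23 (SE, adjusted p = 1.48e-10), again with no overlap. Hoxd10 read 25.5, 43.6, 28.8, 22.5 and 39.3 and differed by 1.26 ± 0.29 (SE, adjusted p = 8.03e-05), and Hoxc9 read 32.8, 32.5, 63.7, 25.3 and 40.7 and differed by 1.15 ± 0.21 (SE, adjusted p = 7.58e-07). Both of these overlapped with telencephalon. Germ cell markers summed to 22591 to 39885 in testes.

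The testes difference of greatest size came from Hoxa4, which is known to be transcribed in mouse male germ cells. Probe set 97745_at, named after its values were seen, read 482, 470.2, 1044, 1449 and 1295 in testes, against 0.21 to 36.1 (median 15.0) in telencephalon, and differed by 5.72 ± 0.22 (SE, adjusted p = 4.07e-48), with 17 of 50 telencephalic arrays at the floor. The DBA, AJ and C3H testes stood above the 129 and B6 testes. The other 3 probe sets of the gene did not follow: 97747_r_at read 390.0, 376, 340.4, 424 and 338, 162402_r_at 41.8, 14.3, 11.2, 22.3 and 13.8 and 97746_f_at 5.85, -7.65, 8.05, 6.44 and 5.34, and none was called. The testes count with 1 probe set per gene was 4.

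**Figure D4:**
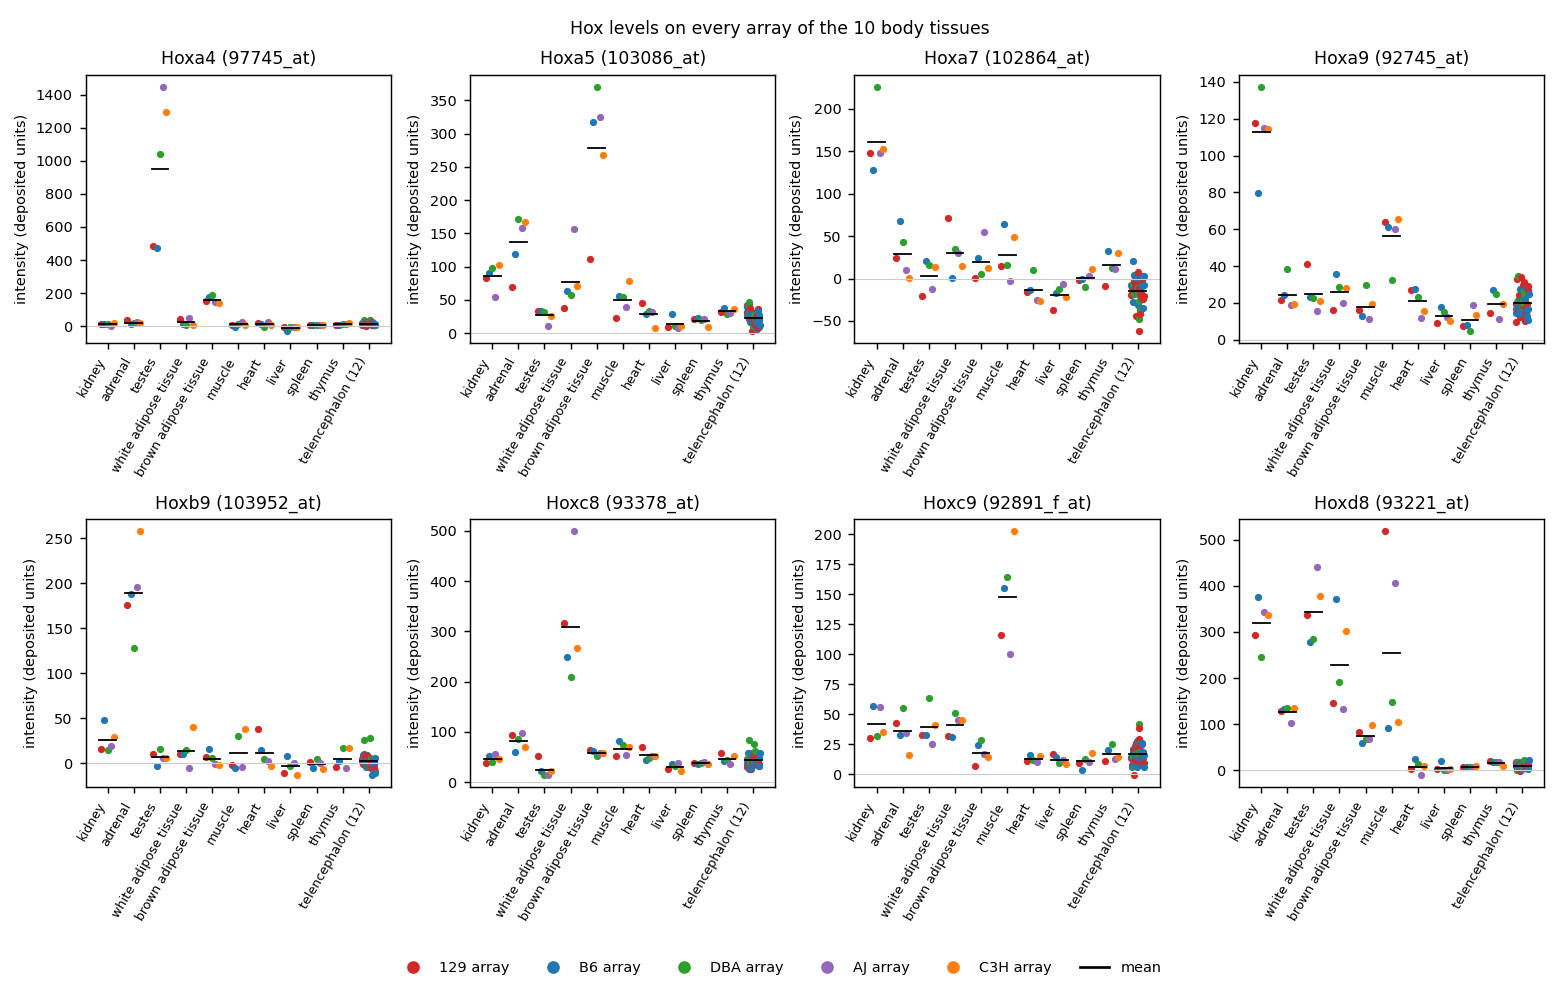
Deposited intensity of single arrays (points, coloured by strain, with the mean as a line) in 10 body tissues, with telencephalon at the right, for 8 Hox probe sets. Hoxa7 and Hoxa9 are highest in kidney, Hoxb9 in adrenal, Hoxa4 97745_at in testes, Hoxc8 in white fat, Hoxa5 in brown fat and Hoxc9 in muscle.

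White adipose tissue had 15 calls higher and 1 lower than telencephalon, with backgrounds of 13.9% and 14.3%. All 5 Hoxc probe sets were called, with a Hoxc median of 2.29. Hoxc8, a gene of the mid trunk, read 317, 249, 209, 499 and 267 in white fat, against 25.5 to 82.9 (median 40.8) in telencephalon, and differed by 2.78 ± 0.18 (SE, adjusted p = 2.11e-28) with no overlap. Hoxc6 read 93.7, 73.1, 51.6, 117 and 78.7 and differed by 2.67 ± 0.21 (SE, adjusted p = 6.09e-23), with overlap only through the CA1 array. Hoxd8 160460_at read 158, 284, 241, 155 and 321 and differed by 2.42 ± 0.21 (SE, adjusted p = 2.5e-20), above every telencephalic array. Hoxc5 read 92.9, 35.9, 44.8, 109 and 68.0, against 0.44 to 39.3 (median 11.9), and differed by 2.29 ± 0.25 (SE, adjusted p = 1.02e-14). Hoxb6 read 148, 309, 216, 60.9 and 337 and differed by 1.91 ± 0.18 (SE, adjusted p = 4.08e-18). Each of Hoxc5 and Hoxb6 had 1 white fat array within the telencephalic range.

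Epididymis genes differed among the white fat arrays. Adam7, an epididymis gene, read 17.3, 2276, 182, 14.0 and 1953 on the 129, B6, DBA, AJ and C3H arrays, and the epididymis list summed to 18.3 to 5894, against 14.6 to 69.8 in telencephalon. The B6, DBA and C3H arrays were also the highest for Hoxd8 160460_at, Hoxb6 and Hoxa11, and the 129 and AJ arrays were the highest for Hoxc5 and Hoxc6. Without those 3 arrays the count was 16, and Hoxa11, Hoxd9 and Hoxd11 lost their calls (-0.09, 0.69 and 0.20), and their part in the other values was not tested. Hoxa11 read 26.9, 75.2, 72.0, 12.8 and 99.3 over all 5. Acta1, the skeletal muscle actin gene, read 524, 898.5, 1037, 76.1 and 1007 on these arrays, against a telencephalic highest of 121. The part of muscle genes in the white fat calls was not tested.

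Brown adipose tissue had 11 calls higher, with 15.0%, of which 6 of 14 were Hoxa probe sets and 4 of 12 were paralogues 1 to 4. Hoxa5 read 111, 317, 370.5, 325 and 268 in brown fat, against 3.52 to 46.9 (median 21.4) in telencephalon, and differed by 3.66 ± 0.25 (SE, adjusted p = 4.76e-27) with no overlap. Hoxc5 read 78.5, 118, 46.8, 68.8 and 95.5 and differed by 2.56 ± 0.25 (SE, adjusted p = 2.93e-17), also with no overlap. Hoxc6 read 39.1, 89.8, 36.4, 56.2 and 41.2 and differed by 1.98 ± 0.21 (SE, adjusted p = 1.82e-15), with overlap only through the CA1 array. Hoxc4 read 62.7, 58.2, 81.1, 71.1 and 58.3, all above telencephalon, and differed by 1.43 ± 0.23 (SE, adjusted p = 2.8e-08). Hoxa13 read 20.9, 55.2, 31.2, 18.4 and 16.5, a difference of 1.23 ± 0.18 (SE, adjusted p = 9.95e-10) that was lost without the B6 array (0.99) and came with overlap. Hoxa4 97745_at was called at 3.29 ± 0.22 and 97747_r_at at 1.20 ± 0.13, so here 2 of its 4 probe sets agreed. The others, 162402_r_at and 97746_f_at, were not called. Acta1, the skeletal muscle actin gene, read 5348, 4750, 14.5, 5655 and 7611 on these arrays, so only the DBA array lay under the telencephalic highest of 121. The DBA array alone gave a count of 15, without Hoxa6 102579_f_at (-0.10), and assumes that it varies like the other tissues.

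The fat depots were set against each other. White fat exceeded brown fat for 9 of 37 probe sets and was lower for 4, with backgrounds of 9.32% and 10.8%, so that the lower count was at the background share. Hoxc8 read 209 to 499 in white fat, against 63.4, 62.4, 52.6, 57.0 and 57.4 in brown fat, with no overlap and a difference of 2.33 ± 0.24 (SE, adjusted p = 1.21e-15). Hoxb5 read 39.4, 54.4, 36.5, 25.5 and 81.1, against 0.94, 11.3, 60.1, 10.4 and -1.45, and differed by 1.54 ± 0.29 (SE, adjusted p = 2.47e-06). Hoxb6 read 60.9 to 337, against 45.8, 63.0, 90.8, 65.9 and 56.1, and differed by 1.54 ± 0.23 (SE, adjusted p = 1.03e-08). The depots overlapped for Hoxb5 through the DBA brown fat array and for Hoxb6 through the AJ white fat array. Hoxc8 was the one of these that held in every single-array omission and in both sets of arrays chosen by foreign genes. Hoxa11 differed by 1.52 ± 0.38 (SE, adjusted p = 0.000472). On the other side, Hoxa5 read 37.7, 63.0, 57.4, 156 and 70.8 in white fat, against 111, 317, 370.5, 325 and 268 in brown fat, a difference of -1.91 ± 0.33 (SE, adjusted p = 2.93e-07). Hoxa4 97747_r_at differed by -1.74 ± 0.17 (SE, adjusted p = 4.97e-16) and 97745_at by -3.01 ± 0.29, and Hoxa13 by -1.27 ± 0.23 (SE, adjusted p = 1.3e-06). Without the 3 white fat arrays with Adam7 the counts were 5 higher and 4 lower. Hoxb6, Hoxa11, Hoxb7 and Hoxd11 then lost their calls (0.68, 0.25, 0.47 and 0.21). So did Hoxd8 160460_at and 93221_at (0.97 and 0.84), and the 5 include probe sets not called over all arrays. With the DBA brown fat array alone, Hoxb5 and Hoxb7 turned in direction (-0.48 and -0.01).

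**Figure D5:**
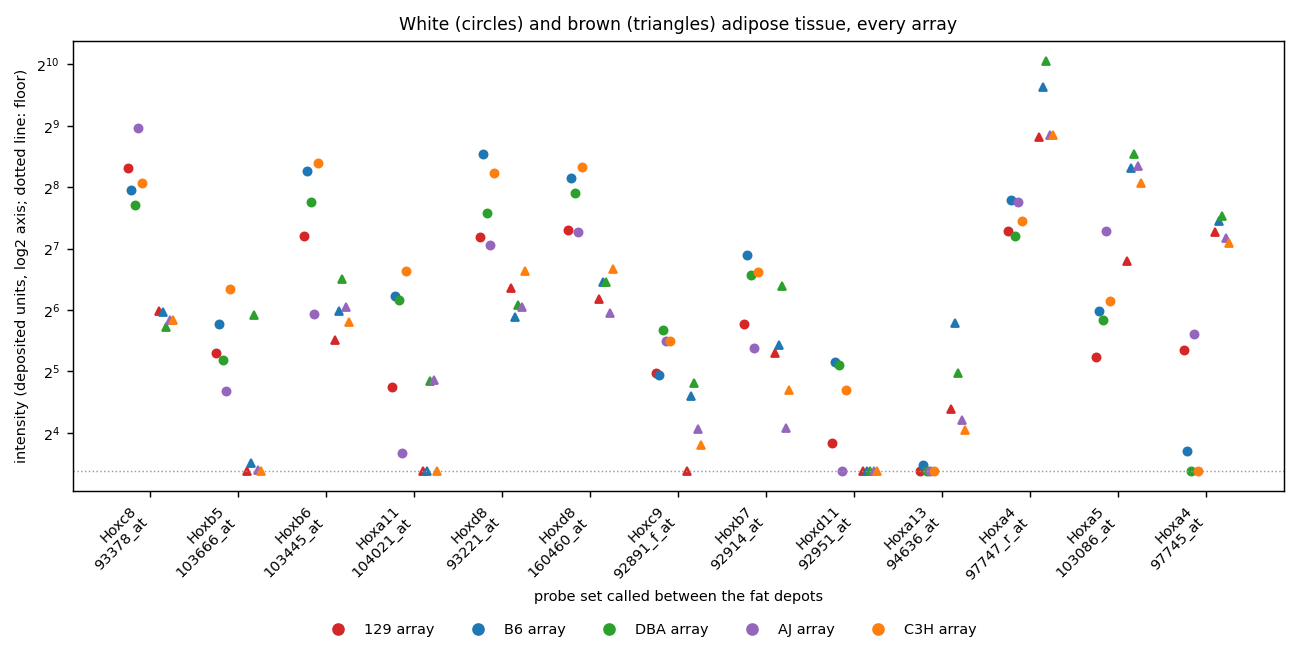
Deposited intensity (log2 axis, values below the floor drawn at the dotted floor line) on every array of white adipose tissue, circles, left of brown adipose tissue, triangles, coloured by strain, for the 13 Hox probe sets called between the depots. All 5 white fat arrays lie above all 5 brown fat arrays for Hoxc8, and for Hoxa5 the AJ white fat array reaches above the 129 brown fat array.

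Muscle had 13 calls higher, with 15.6%, and paralogues 10 to 13 held 4 of them. Hoxc9 read 116, 155, 164, 100 and 202 in muscle, against -1.02 to 42.0 (median 16.1) in telencephalon, and differed by 3.09 ± 0.21 (SE, adjusted p = 4e-27) with no overlap. Its only probe set, 92891_f_at, carries the suffix f, which marks a design that can be less specific. Hoxd8 160460_at read 495, 112, 142, 383 and 177, a difference of 2.41 ± 0.21 (SE, adjusted p = 2.35e-20), and Hoxd9 read 71.8, 26.1, 36.8, 42.5 and -8.55, a difference of 1.61 ± 0.17 (SE, adjusted p = 9.85e-16), each with 1 muscle array inside the telencephalic range. The 129 and AJ muscle arrays were the highest for both Hoxd8 probe sets and for Hoxd9. They were also the highest for the slow-fibre genes Myh7 (1366 and 3207, against 67.1 to 423 on the other 3) and Tnnt1 (1194 and 4189, against 91.7 to 470), genes picked after their values were seen, and their part in the Hoxd values was not tested. Kap read 1583 on the B6 and 301 on the DBA muscle array, and without these 2 the count was 13 and Hoxc5 lost its call (0.79). Adipoq, a fat cell gene, read 222 to 1137 on the 5 muscle arrays, against a telencephalic highest of 21.3, and Ucp1 read 13.7 to 982, against 28.6. The part of the fat genes in the muscle calls was not tested. Heart gave 1 call, with 14.5%: Hoxa13, a gene of the limb tip and hindgut, read 30.8, 41.3, 38.3, 27.7 and 24.5 and differed by 1.54 ± 0.18 (SE, adjusted p = 1.32e-13), with 1 heart array inside the telencephalic range. Liver, spleen and thymus gave 0 of 37 higher by limma, with backgrounds of 14.2%, 15.7% and 16.0%.

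Each organ was also set against the mean of the other 9, which removes the brain baseline. Kidney was higher for 9 Hox probe sets (8.57% over all), led by Hoxa7 at 3.29 ± 0.22 (SE, adjusted p = 8.62e-28). Adrenal was higher for 7 (5.76%), led by Hoxb9 at 3.78 ± 0.17 (SE, adjusted p = 5.94e-41). White adipose tissue was higher for 9 (8.46%), led by Hoxc8 at 2.70 ± 0.18 (SE, adjusted p = 1.34e-27). Brown adipose tissue was higher for 6 (8.41%), with Hoxa5 at 2.75 ± 0.24 (SE, adjusted p = 3.32e-19). Muscle was higher for 7 (10.1%), led by Hoxc9 at 2.72 ± 0.20 (SE, adjusted p = 8.37e-24). Testes were higher for 5 (15.5%), a share near the background, led by Hoxa4 97745_at at 5.53 ± 0.22. Heart, liver, spleen and thymus were higher for 0 (8.77%, 9.85%, 12.5% and 12.2%) and lower for 5, 9, 11 and 4, against 6.39%, 14.8%, 14.6% and 11.6% over all, which the thymus count was near. Kidney, testes and muscle were each lower for 1 (7.65%, 18.2% and 8.37%), and adrenal, white and brown adipose tissue for 0. These 10 comparisons share their arrays with each other.

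Kidney was also set against adrenal, which lies beside it. Kidney was higher for 8 of 37 probe sets and lower for 3, with backgrounds of 8.62% and 9.03%, so that the lower count was near the background share. Hoxa7 read 128 to 226 in kidney, against 23.9, 67.3, 43.5, 10.4 and 0.81 in adrenal, with no overlap and a difference of 2.72 ± 0.29 (SE, adjusted p = 1.21e-14). Hoxd9 read 46.9 to 73.9 in kidney, against 4.19, 7.03, 2.10, 4.95 and 5.34 in adrenal, where every array was at the floor, and kidney was at least 5.71-fold higher (2.51 ± 0.22 (SE, adjusted p = 1.11e-19)). Hoxa9 differed by 2.23 ± 0.27 (SE, adjusted p = 1.61e-12) and Hoxd10 by 1.95 ± 0.38 (SE, adjusted p = 6.46e-06), both higher on every kidney array than on any adrenal array. Lower in kidney were Hoxb9, at 16.1, 47.9, 15.1, 18.7 and 29.3 in kidney, against 176, 188, 128, 196 and 258 in adrenal (-3.01 ± 0.23 (SE, adjusted p = 3.05e-23)), Hoxc6 (-1.24 ± 0.27 (SE, adjusted p = 6.23e-05)) and Hoxc4 (-1.04 ± 0.30 (SE, adjusted p = 0.00271)). The last pair lost their calls without the DBA kidney array (-0.88 and -0.85).

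Testes exceeded adrenal for 5 probe sets and were lower for 8, with backgrounds of 16.4% and 19.2%, so that both counts, of 37, were near the background. Hoxa4 97745_at led the higher calls at 5.40 ± 0.29 (SE, adjusted p = 2.86e-35), Hoxa3 followed at 1.84 ± 0.29 (SE, adjusted p = 2.49e-08), and Hoxd10 at 1.06 ± 0.38 (SE, adjusted p = 0.0124) lost its call in 5 of 10 single-array omissions. Hoxb9 read 10.8, -3.50, 15.3, 6.36 and 6.04 in testes, against 128 to 258 in adrenal, and differed by -4.02 ± 0.23 (SE, adjusted p = 3.34e-33). Hoxc6 differed by -2.57 ± 0.27 (SE, adjusted p = 2.57e-15), Hoxa5 by -2.39 ± 0.33 (SE, adjusted p = 1.34e-10) and Hoxb6 by -1.91 ± 0.23 (SE, adjusted p = 1.55e-12), all lower in testes. The part of the fat genes on the adrenal arrays was not tested here either.

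One strain order was shared by cord and medulla. Hoxa5 was at least 1.5 times higher on both B6 arrays than on both 129 arrays in cord and in medulla, an order seen for 64 of 12422 probe sets (0.515%). In pons the arrays of the strains overlapped for Hoxa5. The 129 array was the lowest of 5 for Hoxa5 in brown fat, adrenal, white fat and muscle, but in kidney the AJ array was. The other body tissues are not given, and each body tissue had a single array per strain. No strain test was made, and the probe set was singled out after its values were seen.

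Summed over the 22 tissues set against telencephalon, 29 of 37 tested Hox probe sets were called higher in at least 1, against 61.2% of all 12387, and 10 in at least 5, against 15.6%. Hoxa5 was called in 8 tissues, Hoxb5 and Hoxd8 93221_at in 7, and Hoxb6, Hoxc6, Hoxa13 and Hoxd8 160460_at in 6. Hoxa2, Hoxb1, Hoxb13, Hoxd1, Hoxd12 and Hoxd13 were called higher in none. Among these, Hoxa2, which patterns the hindbrain and the second branchial arch, read 77.7, 97.3, 67.0 and 57.1 in medulla, against 18.7 to 65.9 (median 38.9) in telencephalon, and its difference of 0.96 ± 0.19 was under the size required. Hoxb1, Hoxb13, both Hoxd1 probe sets and Hoxd12 stayed under 44 units on every array.

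Genes that work with or upstream of Hox proteins were read in the same comparisons of cord, medulla and kidney with telencephalon. Of 6 measured TALE partners out of 8 listed, 1 was higher in cord and 1 in medulla, both Pbx3 (1.23 ± 0.20, adjusted p = 2.96e-07, and 1.39 ± 0.20, adjusted p = 1.18e-08), and in kidney 0 were higher and 2 lower, Meis2 (-1.42) and Meis3 (-1.44). Of 13 measured retinoid and upstream genes out of 16, 1 was higher in cord (Crabp1, a retinoic acid binding protein, 1.21), 1 lower in medulla (Egr2, -1.87), and 2 higher (Rara 1.15 and Rarg 1.24, retinoic acid receptors) and 1 lower (Egr2, -1.83) in kidney. Of 13 measured Polycomb and trithorax genes out of 15, 0 were higher and 1 lower in each of cord, medulla and kidney, namely Rnf2 (-1.33), Rnf2 (-1.77) and Kmt2a (-1.73). Of 6 measured anterior homeobox genes out of 12, En1 was higher in cord (1.40) and 2 were lower in cord, the forebrain genes Dlx1 (-3.18) and Dlx2 (-1.79), which were the 2 lower in medulla too, and kidney also had 0 higher and 2 lower. Over all probe sets the calls in these comparisons were 4.21% higher and 3.32% lower in cord, 2.68% and 3.04% in medulla and 13.8% and 14.2% in kidney, so counts of 1 or 2 say little of such short lists.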

How the data were processed

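Total RNA of 34 mouse tissues was labelled with biotin and hybridised to 1-colour Affymetrix arrays, per the labels' protocols. The deposited table, made by the authors, holds linear intensity values for 12488 probe sets, of which 66 are controls. How they were scaled, and with which software, was not given in the sources used here. Array 75th percentiles ran from 167 to 185, 5.97% of values were below 0, and no scanner files were used. Every column matched a sample (0 did not). Symbols came from the platform annotation: 10833 probe sets have 1 symbol, 396 several and 1193 none.

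Values were raised to a floor of 10.4, the 20th percentile, taken to log2 and fitted per probe set with limma 3.58.1 in R 4.3.3, with tissue and strain as terms, over 148 arrays (eBayes with a trend). Contrasts set each tissue against the unweighted mean of 12 telencephalic tissues, neighbours along the neural axis, each body tissue against the other 9, and 3 pairs of body tissues. Benjamini-Hochberg adjustment ran over 12387 probe sets above the floor on at least 1 array. Probe sets were called at an adjusted p under 0.05 and a difference of at least 1. The fit was tested on simulated data.

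The text names all members, with all arrays for up to 5 called members in 7 tissues, up to 3 in the others and up to 4 per direction in steps and pairs, by the probe set of each gene with the highest mean; muscle and other probe sets are named beyond that rule where said or where needed. The members and lists were chosen with earlier results of these data known. The titles name animals or pools, 108 in all, of which 28 gave several arrays (68 arrays). Blocking on them gave a consensus correlation of 0.0842. Alternatives varied the floor, normalization, filter, probe set choice, block, baseline and arrays.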

Additional observations from a re-analysis of the deposited data

Results flagged for a closer look

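Among 113 tissue groups of called members, 9 held an array far from the others, where chance gives about 5% of groups. In spinal cord, Hoxb8 96417_s_at read 29.3 on the first B6 array, against 35.0 to 36.0 on the other 3. In pituitary the same probe set read 115 on the first 129 array, against 104.0 to 105 on the others. In kidney, Hoxa7 read 226 on the DBA array, against 128 to 152. In adrenal, Hoxb6 read 162 on the AJ array, against 222 to 233, and Hoxd8 93221_at read 103 on that array, against 127 to 135. In white adipose tissue, Hoxa5 read 156 on the AJ array, against 37.7 to 70.8. In brown adipose tissue, Hoxa6 102580_r_at read 149.9 on the DBA array, against 44.5 to 65.6, and this was the array without Acta1. In muscle, Hoxa9 read 32.4 on the DBA array, against 60.4 to 65.4, and Hoxa13 read 52.5 on the C3H array, against 23.3 to 28.6. Each is higher or lower than its group by a gap that is large beside the group's range, and none of these values was tested further.

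Outside the rule, 5 probe sets carry a Hox name with several symbols or another ending. The antisense transcript Hoxa11os (161670_f_at) averaged 43.0 in retina, with arrays from 36.6 to 49.2, against a telencephalic highest of 36.5. The probe set shared by Hoxb8 and Hoxb7 (92915_s_at) averaged 183 in spinal cord, with arrays from 168 to 198, against a telencephalic highest of 159.7. In both, every array of the tissue stood above every telencephalic array.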

How the results depend on the processing

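Differences of single Hox probe sets were steady in direction: over 252 called differences and the alternatives run for each, 6 values changed sign, 302 fell under the threshold and 8211 stayed called. Of the 252 differences, 100 stayed called under every alternative run for them. With the floor at the 40th percentile, a setting that leaves fewer probe sets above the floor, 135 of the 252 called differences were lost. Hox probe sets called higher than telencephalon were then 10 in spinal cord, 6 in medulla, 0 in pons, 0 in cerebellum, 1 in retina, 6 in kidney, 7 in adrenal, 3 in testes, 5 in white and 5 in brown adipose tissue, 3 in muscle and 0 in heart, of 35 tested. Over all probe sets the shares at that floor were 7.65% in retina, 12.4% in kidney, 11.3% in adrenal, 15.0% in testes, 12.1% in white and 13.5% in brown adipose tissue and 13.2% in muscle, so that retina, testes and muscle were under them and both fat depots near them. Those higher in cord than medulla were 6, in pons than midbrain 0, in white than brown adipose tissue 4, in kidney than adrenal 4 and in testes than adrenal 2. Those higher than in the other body tissues were 5 in kidney, 3 in testes, 4 in white adipose tissue and 3 in muscle. Lower counts were 0 in choroid plexus, 3 in cord against medulla and 0 in cerebellum against pons, and against the other body tissues 0 in kidney, testes and muscle, 2 in heart, 3 in liver, 3 in spleen and 2 in thymus. Hoxb4 in medulla against telencephalon changed sign (-0.000107). With the floor at the 10th percentile the higher counts were 2 in pons, 1 in inferior colliculi, 2 in PAG, 2 in hypothalamus, 8 in retina, 2 in heart, 2 in liver, 1 in spleen, 1 in thymus, 4 in pons against midbrain and 1 in heart against the other body tissues. The lower counts were 1 in cerebellum, 1 in PAG, 1 in hypothalamus, 3 in pituitary, 7 in choroid plexus, 1 in brown adipose tissue, 2 in liver and 2 in spleen against telencephalon, 0 in cord against medulla, and against the other body tissues 0 in kidney, 3 in adrenal, 2 in testes, 1 in white and 2 in brown adipose tissue, 10 in heart, 14 in liver and 7 in thymus. Values near the floor therefore limit the counts of dim members. Where no share over all probe sets stands beside a count at these floors, the count shows only how the Hox number moved. It is not set against the background. The cause of the changes below was not tested.

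Quantile normalization gave 0 higher calls in cerebellum, 1 in retina and 1 in liver, 0 lower in choroid plexus and in kidney, 2 lower in cord against medulla and 2 lower in testes against the other body tissues. Fitting neural arrays alone gave 0 in cerebellum and 4 lower in cord against medulla. A filter on dim probe sets gave 3 in retina and 0 in heart. With 1 probe set per gene the higher counts were 4 in testes, 1 in pons against midbrain, 2 in testes against the other body tissues and 2 in testes against adrenal, and the lower counts 0 in cord against medulla, 0 in kidney and muscle and 2 in thymus against the other body tissues. The replicate block, an animal or pool named in the titles, had a consensus correlation of 0.0842, gave 0 higher calls in cerebellum, 1 lower in testes against telencephalon and 2 lower in testes against the other body tissues, and moved no other count by over 1.5 times. Keeping the arrays with identical values and leaving out the trend in the prior variance moved no count by that much. Without hippocampus, CA1, CA3, dentate gyrus or BNST in the baseline, cerebellum had 0 higher calls. Without BNST, cortex, entorhinal cortex, perirhinal cortex, amygdala or olfactory bulbs, choroid plexus had 0 lower calls. Without CA3 or motor cortex, superior colliculi had 1 lower call, and without CA3 or dentate gyrus, testes had 1.

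Alternatives chosen after seeing the data left out arrays with another organ's gene. Without the Adam7 arrays, white over brown adipose tissue had 5 higher calls, white adipose tissue had 1 lower call against the other body tissues, and Hoxa11 changed sign in white adipose tissue against telencephalon (-0.0934) and against the other body tissues (-0.208). Without the Kap arrays, adrenal had 1 lower call against the other body tissues, and without the Acta1 arrays brown adipose tissue had 1, with changed signs for Hoxa6 102579_f_at against telencephalon (-0.10) and for Hoxb5 (-0.48) and Hoxb7 (-0.00504) in white against brown adipose tissue. Without the CA1 array of DBA, 1 Hox probe set lay wholly above telencephalon in retina and 8 in adrenal.

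Leaving out 1 array at a time, higher counts ran from 18 to 21 in cord, 9 to 11 in medulla, 0 to 1 in cerebellum, 2 to 6 in retina, 13 to 16 in kidney, 12 to 14 in adrenal, 6 to 7 in testes, 12 to 15 in white and 10 to 12 in brown adipose tissue, 10 to 13 in muscle, 1 to 2 in heart, 0 to 1 in liver and 0 to 1 in thymus. They ran from 11 to 13 in cord against medulla, 6 to 7 in medulla against pons, 2 to 6 in pons against midbrain and 0 to 1 in heart against the other body tissues. Lower counts ran from 0 to 2 in superior colliculi, and from 0 to 1 in choroid plexus, kidney, testes, white and brown adipose tissue and liver against telencephalon and in cord against medulla. They ran from 1 to 3 in cerebellum against pons and in kidney against adrenal, and against the other body tissues from 0 to 1 in kidney, 1 to 4 in testes, 4 to 8 in heart, 7 to 11 in liver, 10 to 12 in spleen and 2 to 4 in thymus.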
